A study of Mus musculus with 4 samples.

Results

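Acetylcholine receptor subunits and the genes that cluster the receptor were followed in mouse primary myotubes treated with EDA-A2. The 10 genes were taken by name from the muscle receptor and its clustering pathway, out of 53647 genes in the count tables. No rule on their values was used, but earlier results of these data were known when they were chosen. They are the subunit genes Chrna1, Chrnb1, Chrnd, Chrne and Chrng, the clustering genes Musk, Lrp4, Dok7 and Rapsn, and Agrn. The cultures were wild-type primary muscle cells from the limbs of pups aged 2 to 3 days, grown as myoblasts and differentiated into myotubes. Treated cultures received recombinant EDA-A2, the ligand of the TNF receptor family member EDA2R, at 250 ng/mL for 24 h. All cells were harvested at 72 h of differentiation, and the labels call the other cultures Control without naming a vehicle. There were 2 libraries per group, and the labels do not say whether these came from separate animals or cultures. The methods state for the study in general that n counts biological replicates, without naming these libraries. The p-values below measure only the spread between these libraries, which may be technical.

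The muscle acetylcholine receptor is a pentameric channel at the neuromuscular junction, where it turns acetylcholine released by the nerve into depolarization of the fibre. Fetal and uninnervated muscle assembles it with the gamma subunit, and adult innervated muscle replaces gamma with epsilon. Agrin released by the nerve binds LRP4, which activates the kinase MuSK with the help of the cytoplasmic adaptor DOK7, and rapsyn then anchors the receptors in clusters. In cultured myotubes, which lack a nerve, these genes other than that of epsilon are transcribed as part of the differentiation programme.

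Promoter sequences are shown for the fetal and adult subunit genes, which stand for the developmental switch of the receptor, and for Musk and Lrp4, the members that passed the test. Each window holds 250 bases before and 50 bases from the start of the annotated canonical transcript onwards, read from the GRCm39 genome and written 5′ to 3′ on the transcribed strand. Capitals mark CAGCTG, the core of an E-box bound by myogenic factors, and CCGGAA on either strand, the core of the N-box bound by ETS factors. The windows are chr1:87133242-87133541 on the plus strand for Chrng, chr11:70510076-70510375 on the minus strand for Chrne, chr4:58285681-58285980 on the plus strand for Musk and chr2:91287547-91287846 on the plus strand for Lrp4.
Chrng: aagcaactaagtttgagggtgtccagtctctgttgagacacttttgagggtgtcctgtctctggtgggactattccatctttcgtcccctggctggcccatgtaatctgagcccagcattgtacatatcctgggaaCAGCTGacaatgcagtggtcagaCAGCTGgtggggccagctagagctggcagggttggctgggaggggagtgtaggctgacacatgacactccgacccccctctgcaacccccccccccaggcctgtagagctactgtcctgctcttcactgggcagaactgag
Chrne: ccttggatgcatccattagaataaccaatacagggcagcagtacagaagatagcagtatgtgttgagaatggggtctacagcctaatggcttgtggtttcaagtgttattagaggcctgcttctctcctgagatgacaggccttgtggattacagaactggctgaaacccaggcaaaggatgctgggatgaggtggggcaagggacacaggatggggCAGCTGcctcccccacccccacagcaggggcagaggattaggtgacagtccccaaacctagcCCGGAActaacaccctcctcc
Musk: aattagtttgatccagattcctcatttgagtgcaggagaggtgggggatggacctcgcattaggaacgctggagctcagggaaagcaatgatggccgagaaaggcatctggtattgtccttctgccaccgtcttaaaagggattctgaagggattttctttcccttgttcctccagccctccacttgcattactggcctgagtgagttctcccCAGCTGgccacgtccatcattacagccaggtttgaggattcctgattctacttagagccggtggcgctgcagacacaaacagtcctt
Lrp4: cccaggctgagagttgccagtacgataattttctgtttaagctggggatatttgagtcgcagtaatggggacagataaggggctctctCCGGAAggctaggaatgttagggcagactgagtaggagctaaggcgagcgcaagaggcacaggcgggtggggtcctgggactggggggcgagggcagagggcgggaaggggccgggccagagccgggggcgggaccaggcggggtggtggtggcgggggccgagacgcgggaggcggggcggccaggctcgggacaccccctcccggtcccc

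Chrng held 2 copies of CAGCTG, at positions -114 and -91 from the start, whereas Chrne and Musk held 1 each, at -33 and -37. CCGGAA was present in Lrp4 at -162, in Chrne at +30 and in Chrnd at -7. Each motif was thus found in 3 of the 10 windows, CAGCTG against 14.9% and CCGGAA against 16.9% of the windows of 21757 protein-coding genes. Among the 13056 protein-coding genes that passed the filter the shares were 14.2% and 24.1%, which puts the members' count for CCGGAA near the background. The count for CAGCTG rests on 10 windows and was not tested against its share. The wider pattern CANNTG, which includes every CAGCTG, was in 8 of the 10 windows and was missing from Lrp4 and Agrn. It was in 70.6% of all windows and in 65.8% of those of genes that passed the filter. These matches describe the letters of the windows and not bound sites.

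The 10 genes lie on chromosomes 1, 2, 4, 5 and 11. Chrnd (ENSMUSG00000026251, chromosome 1 from 87118306 to 87127795 of GRCm39) and Chrng (ENSMUSG00000026253, chromosome 1 from 87132379 to 87140416) are on the same strand, 4583 bases apart. No annotated gene overlaps Lrp4, and antisense noncoding transcripts cover 1.11% of the exons of Musk (Gm68860), 1.32% of those of Rapsn (Gm13778) and 13.2% of those of Chrna1 (Gm30940). Gm68860 and Gm30940 were not analysed here. Gm13778 had 10 to 30 counts per library. The strand option of the counting is not given in the sources used here, so sense and antisense pairs cannot be told apart in these overlaps.

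The 4 libraries held 29444155 to 29746863 read pairs counted on genes, with TMM factors of 0.972 to 1.026. Values called normalized are counts per library brought to a common effective library size with these factors. Where a gene had no counts, up to 3 remain possible from counting error alone (0.101 to 0.102 CPM). After a filter on low counts 15173 genes were tested, among them 9 of the 10 members, as Chrne was too low. The quasi-likelihood test of edgeR, adjusted by Benjamini and Hochberg's method at 0.05, called 4.57% of them, 371 genes (2.45%) higher and 323 (2.13%) lower after EDA-A2. Under scaling to total counts the split was 485 higher and 194 lower.

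Musk and Lrp4, which encode the kinase and its agrin receptor, fell after EDA-A2, and no member rose. That is 2 of the 9 members tested, against a background of 2.13% of all genes called lower. Fold changes of the other 7 members ranged from -0.29 to -0.02 on the log2 scale and did not pass the test, with Dok7 and Chrnd closest to it. The fetal gamma subunit gene was expressed at 8272 to 9853 counts per library, and the adult epsilon gene at 0 to 3. In bulk RNA, fewer myotubes and less RNA per myotube cannot be told apart.

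Musk (ENSMUSG00000057280, chromosome 4 from 58285931 to 58377847) encodes the muscle-specific receptor kinase through which agrin acts. Its normalized counts were 3510 and 3233 without EDA-A2 and 2639 and 2710 with it. Both treated libraries lay below both controls, and the controls were further apart than the treated libraries. The mean fell from 3372 ± 196 to 2675 ± 50.8 (SD, n = 2), a log2 fold change of -0.33 (standard error 0.07, edgeR adjusted p = 0.0117). The 95% interval of the log2 fold change ran from -0.48 to -0.18.

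Lrp4 (ENSMUSG00000027253, chromosome 2 from 91287797 to 91344248) encodes the low-density lipoprotein receptor-related protein that binds agrin and MuSK. It had 3644 and 3230 normalized counts in control and 2868 and 2786 after EDA-A2, again without overlap. The mean fell from 3437 ± 293 to 2827 ± 57.9 (SD, n = 2), which is -0.28 on the log2 scale (standard error 0.07, edgeR adjusted p = 0.0437). Under scaling to total counts the adjusted p of Lrp4 was 0.112, and with upper quartile factors it was 0.0542.

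With any 1 library left out, the log2 fold change of Musk was -0.39 to -0.27 and that of Lrp4 -0.37 to -0.19. No member was then called, but such a fit leaves 1 library in 1 of the groups. Without control replicate 1 or without control replicate 2, no gene of the whole table was called. Those fits therefore cannot show anything particular to Musk and Lrp4. Without EDA-A2 replicate 1 or EDA-A2 replicate 2 other genes, such as Trim63, were still called, whereas Musk and Lrp4 were not. There the log2 fold change was -0.31 and -0.35 for Musk and -0.30 and -0.26 for Lrp4.

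**Figure D1:**
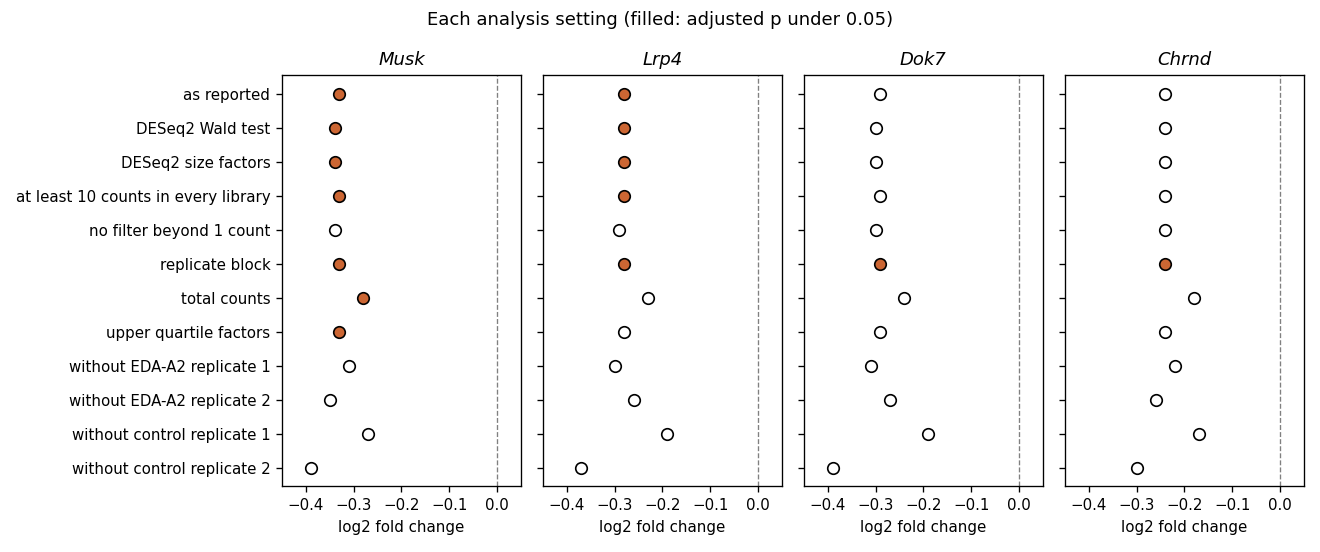
Log2 fold change of EDA-A2 against control (horizontal axes) of Musk, Lrp4, Dok7 and Chrnd under each analysis setting (vertical axis), filled where the adjusted p was under 0.05. Values of Musk run from -0.39 to -0.27 and those of Lrp4 from -0.37 to -0.19, all below 0, and no point is filled where a library was left out.

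Dok7 (ENSMUSG00000044716, chromosome 5 from 35213886 to 35246018), the adaptor that activates MuSK from inside the cell, had 1851 and 1615 normalized counts in control and 1435 and 1394 after EDA-A2. The treated libraries were both lower. The log2 fold change was -0.29 (standard error 0.08), larger than that of Lrp4, but the edgeR adjusted p of 0.057 missed the threshold. Just outside the threshold as well was Chrnd, which encodes the delta subunit, with an adjusted p of 0.0672 from edgeR.

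Rapsn (ENSMUSG00000002104, chromosome 2 from 90865892 to 90876082) encodes the scaffold that binds the receptor directly. Its normalized counts were 1597 and 1888 in control and 1568 and 1605 after EDA-A2. Control replicate 1 was within the range of the treated libraries, and only control replicate 2 stood above. The log2 fold change of -0.14 had a 95% interval from -0.32 to 0.05 (edgeR adjusted p = 0.511), and it was -0.01 without control replicate 2.

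Agrn (ENSMUSG00000041936, chromosome 4 from 156249740 to 156282014) encodes agrin, which muscle also makes in forms without the z exons that give the nerve's form its activity. Counts per gene do not separate these forms. Agrn had 5457 and 5024 normalized counts in control and 4844 and 5187 after EDA-A2. The groups overlapped, and the log2 fold change was -0.06 with a 95% interval from -0.21 to 0.09 (edgeR adjusted p = 0.763).

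**Figure D2:**
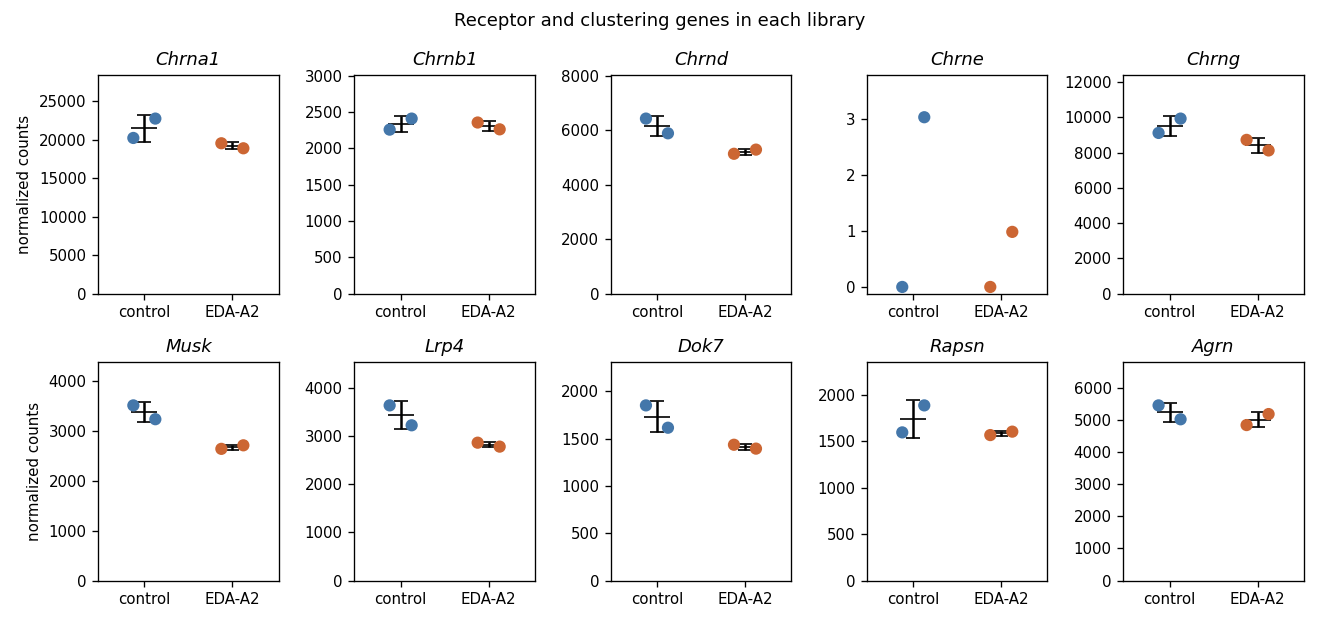
Normalized counts (vertical axis, from 0) of the 10 genes in the 2 control libraries (blue) and the 2 EDA-A2 libraries (orange), with the mean and SD of each group in black except for Chrne, which has at most 3 counts. For Musk, for example, the controls are at 3510 and 3233 and the treated libraries at 2639 and 2710.

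Chrna1 (ENSMUSG00000027107, chromosome 2 from 73393557 to 73410835) encodes the alpha subunit, which carries most of the acetylcholine binding site. It had 20241 and 22758 normalized counts in control and 19551 and 18899 after EDA-A2. The groups did not overlap, but control replicate 1 was nearer to the treated libraries than to control replicate 2. The log2 fold change was -0.16 (standard error 0.07, edgeR adjusted p = 0.303), and it was -0.07 without control replicate 2.

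Chrng, the fetal gamma subunit gene, had 9122 and 9936 normalized counts in control and 8728 and 8129 after EDA-A2. Its log2 fold change was -0.18 (standard error 0.07, edgeR adjusted p = 0.226), between -0.24 and -0.11 over the other settings tried.

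Chrnd, its neighbour on chromosome 1, had 6429 and 5889 normalized counts in control and 5137 and 5290 after EDA-A2. Its log2 fold change was -0.24 (standard error 0.07). Both genes had lower values in the treated libraries without overlap, and neither was called.

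Chrnb1 (ENSMUSG00000041189, chromosome 11 from 69674860 to 69686773) encodes the beta subunit, which takes part in the contact of the receptor with rapsyn. It was the member with the smallest difference, with 2259 and 2411 normalized counts in control and 2357 and 2263 after EDA-A2. The groups lay within each other. The log2 fold change was -0.02 with a 95% interval from -0.17 to 0.14 (edgeR adjusted p = 0.954).

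Both treated libraries lay below both controls in 6 of the 9 members tested, which were Musk, Lrp4, Dok7, Chrnd, Chrng and Chrna1. Of all genes tested, 22.2% had this order and 22.8% the opposite one, which no member had. The same 6 members had an unadjusted p-value under 0.05, against 15.6% of all genes tested. The median log2 fold change was -0.18 over the 9 members tested and -0.00 over all genes. All 9 were negative, as were 50.5% of all genes, except that Chrnb1 was at 0.04 under scaling to total counts, which moves the median of all genes to 0.05, and at 0.01 and 0.03 without EDA-A2 replicate 2 and control replicate 2. The members are read in the same 4 libraries and are not independent of each other.

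**Figure D3:**
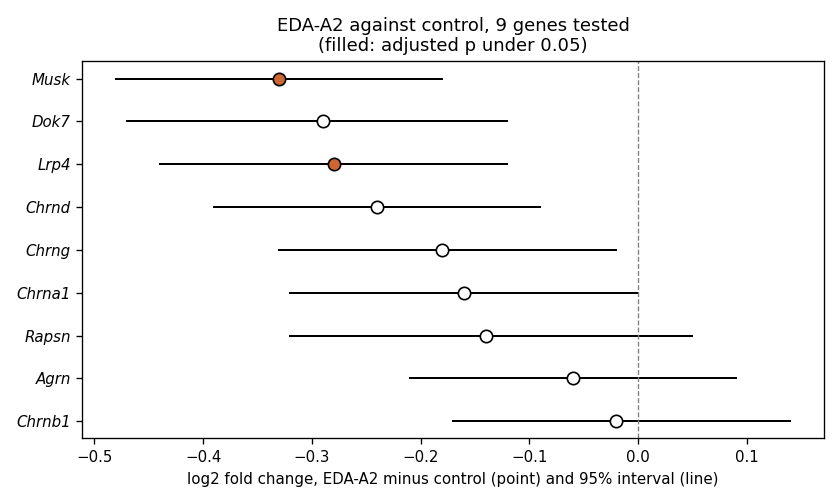
Log2 fold change of EDA-A2 against control (horizontal axis, points) with its 95% interval (lines) for the 9 genes tested, filled where the adjusted p was under 0.05. Musk at -0.33 and Lrp4 at -0.28 are filled, Dok7 at -0.29 is not, and the intervals of Rapsn, Agrn and Chrnb1 cross 0.

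The fetal and adult subunit genes were far apart in every library. Chrne (ENSMUSG00000014609, chromosome 11 from 70505707 to 70510125) encodes the adult epsilon subunit. Control libraries held 0 and 3 counts of it and treated libraries 0 and 1, so it was at or under the floor of 3 counts in all 4. Chrng had 8854 and 9853 counts in control and 8904 and 8272 after EDA-A2.

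Per length of exons, Chrng was at least 1246-fold higher than Chrne in control replicate 1 and at least 1253-fold higher in EDA-A2 replicate 1, where Chrne had no counts. In control replicate 2 the ratio was 1387, with an exact 95% counting interval of 474 to 6727. EDA-A2 replicate 2, with a single count of Chrne, gave 3493 with an interval of 627 to 137999. The intervals overlap between groups, so no shift from fetal to adult subunit, or away from it, was detectable at this depth. With 1 count added to each gene, the log2 ratio of Chrng to Chrne was 10.95 in control and 11.32 after EDA-A2. The difference of 0.38 had a two-sided exact permutation p of 0.667 (n = 2 per group, smallest possible p 0.333), and it turned negative without control replicate 2 or EDA-A2 replicate 1.

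Compared per kilobase of merged exons, the members kept one order in both groups. Chrna1 was highest, with 4735 ± 392 normalized counts per kb in control and 4234 ± 102 after EDA-A2 (SD, n = 2). Chrng followed with 2267 ± 137 and 2005 ± 101, and Chrnd with 1708 ± 106 in control, its treated libraries being at 1424 and 1467. These steps exceeded the range over the 4 libraries.

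Chrnb1, at 895 ± 41.1 and 886 ± 25.5 normalized counts per kb, and Rapsn, at 819.5 ± 96.7 and 746 ± 12.2, overlapped each other. Agrn came next with 545 ± 31.8 and 522 ± 25.2. The signalling genes were lowest, Musk at 401 ± 23.3 and 318 ± 6.04, Lrp4 at 319.8 ± 27.3 and 263 ± 5.39, and Dok7 at 249 ± 23.9 and 203 ± 4.2. Musk overlapped Lrp4, and Lrp4 overlapped Dok7. The order of the first 5 means and the last place of Chrne were the same by coding length and by the length of the canonical transcript, whereas Agrn, Musk, Lrp4 and Dok7 changed places.

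**Figure D4:**
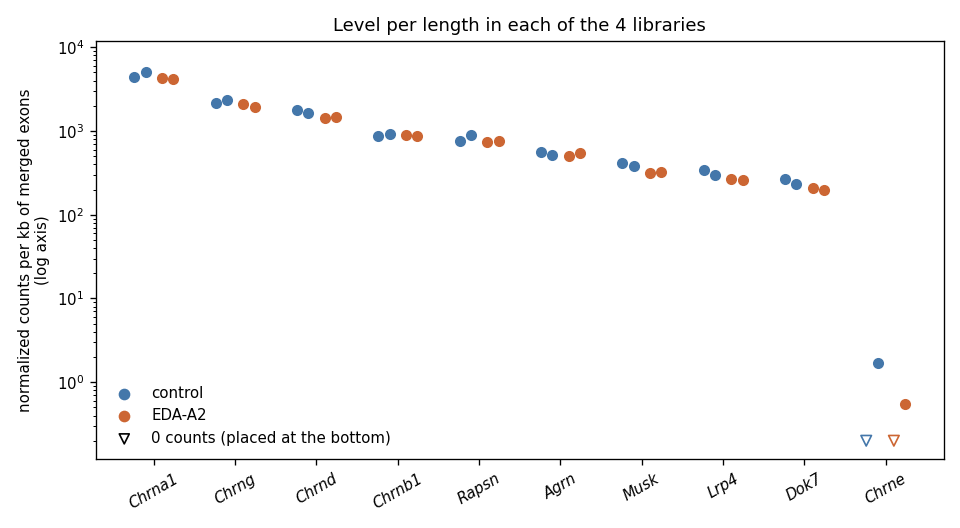
Normalized counts per kilobase of merged exons (vertical log axis) of the 10 genes in the control (blue) and EDA-A2 (orange) libraries, ordered by the control mean. Chrna1 is highest at 4162 to 5012, Dok7 is at 199.9 to 266, and Chrne is at 0 in 2 libraries (open triangles) and at 1.7 and 0.554 in the others.

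Within the receptor, shares of the 5 subunit genes in their summed level per kilobase are free of any scaling between libraries. Chrna1 made up 48.1% and 50.4% of the sum in control and 49.4% and 49.4% after EDA-A2. The share of Chrng was 23.4% and 23.8% in control and 23.8% and 22.9% after EDA-A2, and that of Chrnd was 19.2% and 16.4% against 16.4% and 17.4%. For these 3 genes the groups overlapped or touched.

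Chrnb1 alone had a share without overlap, 9.34% and 9.3% in control against 10.4% and 10.3% after EDA-A2. The ratio of Chrna1 to Chrnb1 was 5.15 and 5.42 in control and 4.77 and 4.8 after EDA-A2, while that of Chrna1 to Chrng was 2.05 and 2.12 against 2.07 and 2.15. With 2 libraries per group such an order has an exact permutation p of at least 0.333. By coding length the share of Chrnb1 was 5.79% and 5.71% in control and 6.41% and 6.37% after EDA-A2.

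All 9 myotube markers tested had negative log2 fold changes, as Musk and Lrp4 did. Of the 9, 5 were called lower, against 2.13% of all genes tested. These were Myh3, Myh8, Acta1, Mylpf and Actn2, which encode proteins of the contractile apparatus. The median log2 fold change of the 9 was -0.38. Their summed level was 787277 to 817567 normalized counts in control and 581944 to 586597 after EDA-A2, and most of it was Myh3, Acta1 and Mylpf. The embryonic myosin gene Myh3 fell by 0.57 on the log2 scale (edgeR adjusted p = 0.000199). Ckm, muscle creatine kinase, had a log2 fold change of -0.36 (edgeR adjusted p = 0.0662). The others not called were Ttn at -0.25, Tnnt3 at -0.16 and Mymk at -0.01, and the groups overlapped for Mymk. The part of this shift in the result for the receptor genes was not tested.

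Markers of nerve, Schwann, immune and endothelial cells were sparse. Of the motor neuron genes, Chat, Slc18a3 and Mnx1 had 0 counts in each library, and Isl1 had 174 to 213 counts. Schwann cell genes summed to 60.8 to 88.7 normalized counts with Sox10 at 0. Macrophage genes summed to 58.7 to 88.2, with Adgre1 at 0 to 1 counts and Cd68 at 55.6 to 79.4 normalized counts. Endothelial genes summed to 29.5 to 36.3, with Kdr at 0 to 4 counts and Cdh5 at 14.4 to 24.6 normalized counts. None of these lists had a gene called.

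Genes of dividing cells summed to 21998 and 25757 normalized counts in control and 24347 and 23941 after EDA-A2, with none of 5 called. Their highest gene, Top2a, differed by 0.02 on the log2 scale and their lowest, Ccnb1, by -0.19. The 4 myoblast genes summed to 36419 and 34733 normalized counts in control and 34062 and 33866 after EDA-A2. Most of this sum was Des, the gene of desmin, at 31073 and 29977 in control and 30134 and 30027 after EDA-A2. All 4 log2 fold changes were negative, with Des at -0.02 and Myf5 at -0.24. Pax7 had 1356 and 1352 normalized counts in control and 1169 and 1232 after EDA-A2 (log2 fold change -0.17, edgeR adjusted p = 0.286). Of the 4 myoblast genes only Cdh15, a muscle cadherin, was called, and it fell by 0.47 on the log2 scale (edgeR adjusted p = 0.00318). Fibroblast genes summed to 10584 and 6431 normalized counts in control and 5759 and 6978 after EDA-A2. Pdgfrb, 1 of 4 tested, fell by 0.45 on the log2 scale (edgeR adjusted p = 0.0125). Over all genes tested, 2.13% were called lower. Dcn, of the matrix protein decorin, had 75.2 and 99.8 normalized counts in control and 135 and 109 after EDA-A2 (log2 fold change 0.48, edgeR adjusted p = 0.267). Pdgfra had 247 and 288 against 302 and 295 (log2 fold change 0.16, edgeR adjusted p = 0.651), and Thy1 had 0 counts throughout. Col1a1 stood at 9277 normalized counts in control replicate 1 and at 4675 to 5802 in the other libraries. What these markers add to the values of Musk and Lrp4 was not tested.

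Downstream of MuSK, 31 signalling intermediates were all tested, and 1 was higher and 2 were lower, with a median log2 fold change of -0.01. Apc, which encodes a microtubule-binding protein known to bind the receptor's beta subunit, rose from 3231 and 3113 normalized counts in control to 4427 and 4203 after EDA-A2 (log2 fold change 0.44, edgeR adjusted p = 0.00111). Abl2, a tyrosine kinase of the MuSK pathway, fell from 3413 and 3061 to 2521 and 2666 (log2 fold change -0.32, edgeR adjusted p = 0.0219). The groups did not overlap for Apc and Abl2, which were named for their small p-values.

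On the neuregulin axis, another signal to the synapse, 4 of 5 genes were tested and 1 was called, against 4.57% of all genes. Nrg1, the gene of the ligand, rose from 107 and 96.8 normalized counts to 169 and 182 (log2 fold change 0.78, standard error 0.17, edgeR adjusted p = 0.0146). The log2 fold changes of its receptors were -0.12 for Erbb2, -0.20 for Erbb3 and 0.48 for Erbb4, and none passed. The treated libraries were above the controls for Nrg1 and Erbb4 and below them for Erbb2 and Erbb3. Of all genes tested, 22.8% and 22.2% had these orders.

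No gene among the transcription factors that control synaptic genes was called in the reported fit. Of 12 such genes 11 were tested, with a median log2 fold change of -0.06. Myog, which encodes the E-box factor myogenin, had 37627 and 30445 normalized counts in control and 30283 and 29906 after EDA-A2 (log2 fold change -0.18, edgeR adjusted p = 0.36). Only control replicate 1 of Myog stood apart, and without it the value was -0.01. Gabpb1, a subunit of the ETS factor that binds the N-box, had 624 and 668 against 775 and 815 (log2 fold change 0.30, edgeR adjusted p = 0.0816), and it was called higher under total counts (edgeR adjusted p = 0.0479). For Etv5, another ETS factor, and Zeb1 the log2 fold changes were -0.22 and 0.17.

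Denervation of muscle is known to raise receptor subunits, Musk and a set of other genes together, and 9 of 10 genes listed for that response were tested. The ubiquitin ligase genes Trim63 and Fbxo32 rose and the embryonic myosin gene Myh3 fell, and the median of the list was -0.12 on the log2 scale. Trim63 rose from 2014 and 2070 normalized counts to 3449 and 3794 (log2 fold change 0.83, edgeR adjusted p = 7.62e-06). Fbxo32 rose from 1660 and 1885 to 2812 and 2747 (log2 fold change 0.65, edgeR adjusted p = 0.000121). Of all genes tested, 2.45% were called higher and 2.13% lower. None of the members tested was called higher, and a likeness to denervation was not tested. Gadd45a had a log2 fold change of -0.19 (edgeR adjusted p = 0.176).

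Of 9 genes of the postsynaptic scaffold, 1 rose and 1 fell, against 2.45% and 2.13% of all genes tested. The median log2 fold change of the list was -0.02. Sntb1, which encodes beta-1 syntrophin, fell from 12980 and 13085 normalized counts to 10742 and 9985 (log2 fold change -0.33, edgeR adjusted p = 0.0102). Nes, the gene of the intermediate filament protein nestin, rose from 31915 and 29556 to 43357 and 37781 (log2 fold change 0.40, edgeR adjusted p = 0.00782). Plec, which encodes the linker plectin, was at -0.15 (edgeR adjusted p = 0.322).

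None of 8 tested genes of the synaptic basal lamina, of 11 listed, was called in the reported edgeR fit, with a median log2 fold change of -0.08. Lamb2, the laminin chain concentrated at the synapse, had 4064 and 4140 normalized counts in control and 3493 and 3526 after EDA-A2 (log2 fold change -0.22, edgeR adjusted p = 0.0713). The groups did not overlap. For Lama5, Col4a4 and Col4a5 the log2 fold changes were -0.16, -0.64 and 0.57.

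Fits with 1 library left out were read for these lists as well. No gene of the whole table was called without control replicate 1 or without control replicate 2, so those fits cannot tell these lists from other genes. There the log2 fold change was 0.81 and 0.85 for Trim63, -0.56 and -0.58 for Myh3, and 0.47 and 0.42 for Apc. Without EDA-A2 replicate 1 the calls of Abl2 and Nes were lost (edgeR adjusted p 0.239 and 0.138), and without EDA-A2 replicate 2 those of Abl2, Nrg1 and Sntb1 (0.0732, 0.155 and 0.2). Abl2 was not called under total counts (edgeR adjusted p 0.057). With no filter beyond 1 count, edgeR called none of Apc, Abl2, Nrg1, Sntb1 and Nes (adjusted p 0.0682, 0.234, 0.117, 0.115 and 0.162).

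**Figure D5:**
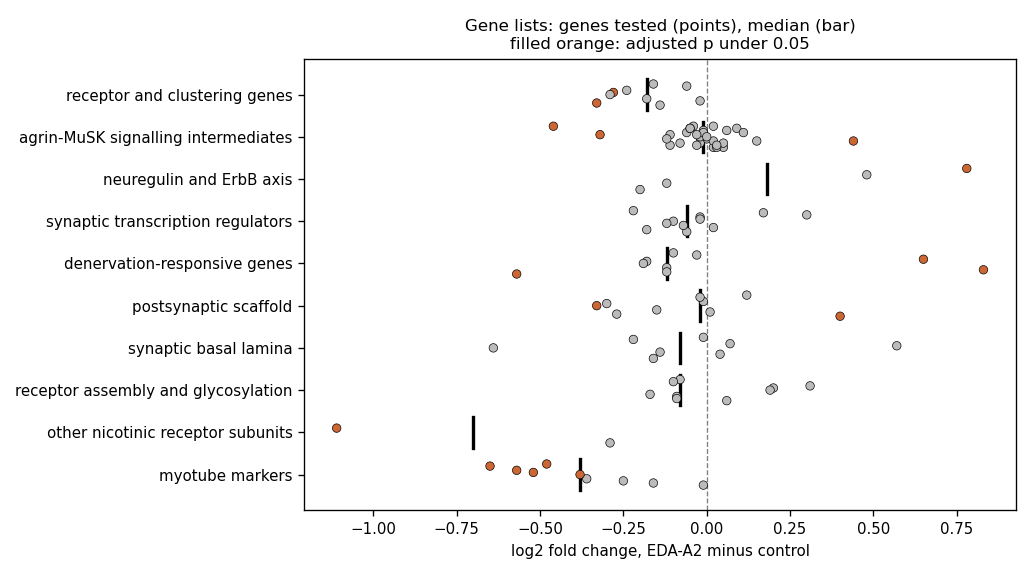
Log2 fold change of EDA-A2 against control (horizontal axis) of each gene tested in the lists, with the list's median as a black bar and genes with an adjusted p under 0.05 in orange. The receptor and clustering genes have a median of -0.18, the signalling intermediates of -0.01 and the myotube markers of -0.38.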

How the data were processed

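The authors sequenced stranded poly(A) libraries in pairs, checked reads with FastQC 0.11.9, trimmed them with Trim Galore 0.6.5, mapped them to GRCm39 with STAR 2.7.3a and counted them per gene with HTSeq 0.11.1. They deposited raw counts for each Ensembl gene in a separate table per library. HTSeq's summary lines, with 6.68% to 7.4% of pairs assigned to no feature, 0.946% to 0.986% ambiguous and 4.56% to 4.76% not unique, were left out. Symbols, positions and exon lengths came from GENCODE, which matched 52610 of 53647 genes.

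The counts the authors deposited entered edgeR 4.0.16 under R 4.3.3 (TMM, filterByExpr requiring 10 counts and a total of 15, glmQLFit and glmQLFTest, condition as the only term) and Benjamini-Hochberg adjustment over all genes at a threshold of 0.05. For single genes of these libraries the methods name no test, and they name gene set enrichment analysis and a general t-test for 2 groups. Alternatives were other scalings and filters, the DESeq2 1.42.0 Wald test, a replicate block and leaving out each library. Steps were tested on simulated counts. Libraries of 1 group differed by more than sampling noise (chi-square per gene 9.94 and 4.73, against 16 to 22.1 between groups).

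The members and lists were chosen with earlier results of these data known. Named genes are the members, up to 4 tested genes per pathway list with the smallest p-values (every tested gene for the other nicotinic subunits), the highest and the lowest gene of each marker list, and genes overlapping a member. Some genes that this rule names are not reported here, though list counts include them. Marker genes named beyond this rule were chosen after their values were seen. Lists of signalling intermediates, neuregulin, transcription regulators, denervation, scaffold, basal lamina, receptor assembly, other nicotinic subunits and cell type markers were written from general knowledge. The low gene 4930544D05Rik, which overlaps Chrne outside its exons, had 0 counts in each library.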

Additional observations from a re-analysis of the deposited data

How the results depend on the processing

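Musk was called with the DESeq2 Wald test, with DESeq2 size factors in edgeR, with at least 10 counts in every library, under total counts, with upper quartile factors and with the replicate block, and was not called with no filter beyond 1 count (adjusted p 0.154). Lrp4 was called in 4 of 11 settings and Musk in 6. With no filter 86 genes changed (64 higher, 22 lower) and 0 members, with 2264 genes and 5 members at an unadjusted p-value under 0.05 by edgeR, over 25545 genes tested. Under total counts 194 genes were lower and 1 member was changed and lower. Upper quartile factors also left 1 member changed and lower. Chrnb1 was at 0.04 and Des at 0.03 under total counts.

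With the replicate number as a block, 1066 genes changed, 529 of them lower, and 4 members changed, all lower: Musk, Lrp4, Dok7 and Chrnd. The block also called Gabpb1, Lamb2, Ubxn2a and Ckm (adjusted p 0.0374, 0.0347, 0.0194 and 0.0173). The labels tie nothing but a number to these pairs, and the correlation of same-numbered libraries' deviations was 0.06, so the block is given for completeness. The difference in the log2 ratio of Chrng to Chrne is 0.38 with it as without. The ratio could not be computed without an added count, since Chrne has counts of 0.

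With 1 library left out, the lone library is assumed to vary like the other group. Genes changed then numbered 0 to 402, genes higher 0 to 238, genes lower 0 to 170, members changed 0 to 0 and members lower 0 to 0. Without control replicates 1 and 2 edgeR called 0 genes, with 2179 and 2449 at an unadjusted p-value under 0.05. The cause was not tested. Members at an unadjusted p-value under 0.05 numbered 4 to 7. The ratio of Chrng to Chrne differed by -0.54 to 1.30. Log2 fold changes that changed sign were those of Chrnb1 (-0.06 to 0.03, positive without EDA-A2 replicate 2 or control replicate 2), Top2a (-0.11 to 0.16, negative without EDA-A2 replicate 2 or control replicate 1), Col1a1 (-0.82 to 0.04) and Des (-0.05 to 0.01), both positive without control replicate 1. Levels per coding length and per canonical transcript were chosen after seeing the data. The 2 libraries per group, and 0 to 3 counts for Chrne, limit what these data can show.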

Other observations

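Of 11 other nicotinic receptor subunit genes, which form neuronal receptors and those of sensory and immune cells, 5 had 0 counts in every library and 8 had at most 3. Chrna9, which encodes the alpha 9 subunit of cochlear hair cells, was 1 of the 2 tested. It fell from 93.8 and 67.6 normalized counts in control to 30.4 and 44.2 after EDA-A2, a log2 fold change of -1.11 (standard error 0.28, edgeR adjusted p = 0.032). Both treated libraries were below both controls, and over the other settings tried the log2 fold change was -1.41 to -0.85 and the adjusted p 0.0172 to 0.366. Chrnb2 had 43.3 and 31.3 against 30.4 and 30.5 normalized counts (log2 fold change -0.29, edgeR adjusted p = 0.75).

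Among 11 genes for assembly and glycosylation of the receptor, 9 were tested and none was called in the reported edgeR fit, with a median log2 fold change of -0.08. Ubxn2a, which encodes a regulator of nicotinic receptor degradation, had 855 and 780.5 normalized counts in control and 1056 and 969 after EDA-A2 (log2 fold change 0.31, edgeR adjusted p = 0.0666). It was called higher by edgeR under total counts (adjusted p = 0.0375) and with the replicate block (adjusted p = 0.0194). Gfpt1, the gene of the enzyme that starts hexosamine synthesis and is mutated in a myasthenic syndrome, had 6941 and 7427 against 8070 and 8403 (log2 fold change 0.20, edgeR adjusted p = 0.138). The values of Syvn1 and Alg14 were -0.17 and 0.19. The groups did not overlap for Ubxn2a, Gfpt1, Syvn1 and Alg14, which were named for the smallest p-values of this list. Of all genes tested, 22.2% lay lower and 22.8% higher without overlap. Ric3, a chaperone of neuronal nicotinic receptors, had 0 counts in each library.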
